A study of Homo sapiens with 12 samples.

Results

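Cholesterol is made from squalene by a fixed sequence of membrane enzymes, and 9 of these were followed here in pathway order: SQLE, LSS, CYP51A1, TM7SF2, MSMO1, NSDHL, HSD17B7, EBP and DHCR7. They were chosen by name, as the probe sets whose platform annotation gives one of these symbols, and with earlier results of these data known. Each of the 9 genes had 1 probe set, so the members were 9 of 17687 named genes, or 9 of 21448 probe sets, and no filter removed any.

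The arrays came from PC-9 and H1975, human lung adenocarcinoma lines whose growth depends on a mutant epidermal growth factor receptor. There were 4 groups of 3 arrays: PC-9 cells exposed for 48 h to 100 µM SK-216 after becoming osimertinib-tolerant, osimertinib-tolerant PC-9 cells, and the same 2 groups of H1975 cells. In all groups, cells had been kept for 1 week in medium with 0.5 µM osimertinib, a kinase inhibitor of that receptor, and those alive on day 8 were taken as tolerant. SK-216 is named by its code only, and cells still alive after it were collected. Whether osimertinib stayed in the medium for these 48 h is not stated. The arrays analysed here hold no cells free of osimertinib exposure by title or protocol, although 1 label field of the SK-216 samples describes their starting cells as naive. SK-216 and the added 48 h are therefore compared together, and each line stands for itself only.

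Values are log2 signals, as the authors deposited them, so a difference of 1 is a doubling of signal, and levels of different probe sets are not compared. Arrays of a group correlated at r of at least 0.993 over all probe sets. Of 8 epithelial or lung carcinoma markers, KRT8, KRT18, KRT19 and KRT7 had means of at least 12.91 in tolerant cells of both lines. EPCAM was at 15.29 in tolerant PC-9 and 8.18 in tolerant H1975 cells, CDH1 (E-cadherin) at 11.95 and 7.58, and EGFR at 11.87 and 10.66. NKX2-1, a lung lineage factor, was at 4.17 in tolerant PC-9 and 5.10 in tolerant H1975 cells, near the 95th percentile of 348 olfactory receptor probe sets, 5.01, which stands in for unexpressed genes. All 9 sterol enzymes lay above that level in every group, the lowest group mean being 7.90. Markers of leukocytes, endothelium and hepatocytes gave no call for SK-216 in either line, but not all were low. In tolerant H1975 and PC-9 cells CD68 was at 12.24 and 11.60, SERPINA1 at 10.75 and 3.86, and CDH5 at 4.84 and 7.47. CD14 changed by -0.74 ± 0.21 in H1975 without a call (limma, adjusted p = 0.0508). Of 5 fibroblast markers COL1A1, a collagen chain, fell in H1975, by 0.96 on the log2 scale, and its part in the results below was not tested. The summed level of these 5 (log2 of the summed linear signal) was 9.53 to 9.66 in H1975 with SK-216, against 9.96 to 10.24 in tolerant H1975 cells. In PC-9 the sum went the other way, at 8.86 to 9.24 with SK-216 against 8.41 to 8.85 in tolerant cells. Of the 8 epithelial markers none passed in PC-9. In H1975 with SK-216 CDH1 changed most, at -1.55 ± 0.13 on the log2 scale (adjusted p = 4.51e-08), and KRT8 fell too, at -0.24 ± 0.06. EPCAM rose by 0.77 ± 0.13, EGFR by 0.52 ± 0.12 and KRT7 by 0.33 ± 0.08; the part of these changes in the results was not tested either.

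The enzymes lie in the endoplasmic reticulum. SQLE adds oxygen to squalene, a rate-limiting step, LSS closes the rings to give lanosterol, and CYP51A1 and TM7SF2 then remove a methyl group and reduce the double bond left behind. MSMO1, NSDHL and HSD17B7 act in turn to strip the methyl groups of ring A, EBP moves a ring double bond, and DHCR7 carries out a last reduction to cholesterol. Their genes are known targets of SREBP2, a transcription factor released from the endoplasmic reticulum when sterol is low, which works together with NF-Y and Sp1 at promoters.

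Because most of these genes moved together, as given below, their upstream sequences are shown for the members on which the results turn: MSMO1 and DHCR7, called in both lines, CYP51A1 and LSS, whose change differed between the lines, and TM7SF2, which passed in neither. Each is the 250 bases before a RefSeq start site in GRCh38.p14, written 5′ to 3′ on the gene's strand, and capitals mark CCAAT or its complement ATTGG, the NF-Y box. MSMO1 is at chr4:165327419-165327668 (plus strand), DHCR7 at chr11:71448394-71448643 (minus), CYP51A1 at chr7:92134478-92134727 (minus), LSS at chr21:46228775-46229024 (minus) and TM7SF2 at chr11:65111622-65111871 (plus).
MSMO1: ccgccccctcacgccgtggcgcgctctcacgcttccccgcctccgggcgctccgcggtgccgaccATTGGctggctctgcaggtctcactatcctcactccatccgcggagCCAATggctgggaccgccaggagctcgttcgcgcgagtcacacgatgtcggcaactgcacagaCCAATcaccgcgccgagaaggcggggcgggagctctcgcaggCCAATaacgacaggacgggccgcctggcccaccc
DHCR7: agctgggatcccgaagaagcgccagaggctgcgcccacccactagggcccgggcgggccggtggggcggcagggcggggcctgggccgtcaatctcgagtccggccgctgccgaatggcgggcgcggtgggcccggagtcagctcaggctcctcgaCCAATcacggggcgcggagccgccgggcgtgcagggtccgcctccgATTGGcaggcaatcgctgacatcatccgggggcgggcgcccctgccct
CYP51A1: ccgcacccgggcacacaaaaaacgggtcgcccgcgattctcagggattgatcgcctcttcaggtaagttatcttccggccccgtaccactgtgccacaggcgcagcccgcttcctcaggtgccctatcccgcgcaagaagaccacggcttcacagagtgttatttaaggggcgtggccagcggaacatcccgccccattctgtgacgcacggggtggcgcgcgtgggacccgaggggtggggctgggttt
LSS: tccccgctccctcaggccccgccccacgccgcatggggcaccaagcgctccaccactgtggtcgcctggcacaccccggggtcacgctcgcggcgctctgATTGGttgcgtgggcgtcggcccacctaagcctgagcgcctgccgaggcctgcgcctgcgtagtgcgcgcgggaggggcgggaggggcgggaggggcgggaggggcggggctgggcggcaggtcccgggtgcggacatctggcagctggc
TM7SF2: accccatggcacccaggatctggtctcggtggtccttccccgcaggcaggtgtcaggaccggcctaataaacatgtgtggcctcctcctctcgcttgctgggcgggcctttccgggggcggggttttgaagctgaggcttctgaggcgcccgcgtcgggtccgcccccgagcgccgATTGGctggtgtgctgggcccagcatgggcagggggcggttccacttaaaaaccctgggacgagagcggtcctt

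RefSeq promoters were available for 8 of the 9 genes, all but SQLE. Although called in both lines, SQLE was therefore neither searched nor shown. DHCR7 had 2 start sites, of which the printed one holds matches and the other none. Members are counted below per gene, DHCR7 by the printed window, while shares over genes on the array count every window. Both strands were searched for 4 motifs: CCAAT, the GC box GGGCGG bound by Sp1, the E-box CACGTG, and TCACNCCAC, the core of the sterol regulatory element bound by SREBP. An NF-Y box was present upstream of 7 of the 8 genes, against 32.8% of the 20090 upstream windows of genes on the array, and 2 or more were present in 4 of the 8, against 10.4%. MSMO1 held 4, at 185, 139, 76 and 34 bases before the start, NSDHL 5, of which the ones at 113 and 110 bases overlap as a palindrome, EBP 3 and DHCR7 2. LSS, TM7SF2 and HSD17B7 held 1 each, and CYP51A1 none. A GC box was present in 7 of the 8, all but NSDHL, against 54.4%, and LSS held 6. Neither the E-box, found in 7.3% of windows, nor TCACNCCAC, found in 0.9%, was present in any. A match is a string of letters and not a measured binding site, and the absence of one says only that these letters are not in this window.

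**Figure D1:**
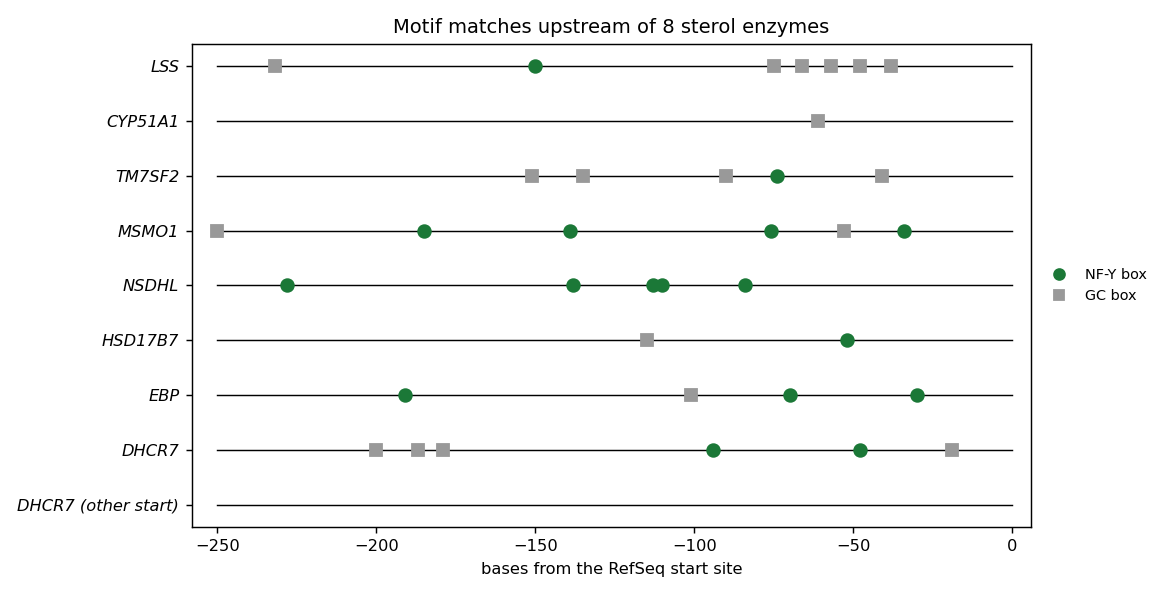
Motif matches in the 250 bases before RefSeq start sites of 8 sterol enzymes, with the distance from the start site in bases on the x axis and 1 line per window. Circles are NF-Y boxes and squares GC boxes; MSMO1, NSDHL, EBP and DHCR7 hold 2 or more NF-Y boxes and CYP51A1 none.

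The first question was how these enzymes differed between cells with SK-216 and tolerant cells of each line, the added 48 h included. In PC-9, 8 of the 9 rose, all but TM7SF2, and none fell, where 0.373% of all probe sets rose, 0.0699% fell and 0.443% changed either way. The median of the 9 log2 changes was 0.98, against 0.00 over all probe sets, for which the 5th and 95th percentiles were -0.40 and 0.39. In H1975, 4 of the 9 rose, SQLE, CYP51A1, MSMO1 and DHCR7, and none fell, where 1.44% of all probe sets rose, 2.35% fell and 3.8% changed either way. The median there was 0.45, against 0.01 over all probe sets. The 9 were chosen with earlier results of these data known, so shares over all probe sets give scale and do not test the set. The 4 enzymes called in H1975 were also called in PC-9, and they are 4 of the 21 probe sets that rose in both lines (0.0979% of all). A call means an adjusted p below 0.05 in the limma fit over all 21448 probe sets, and changes are log2 fold changes ± the standard error of that fit.

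**Figure D2:**
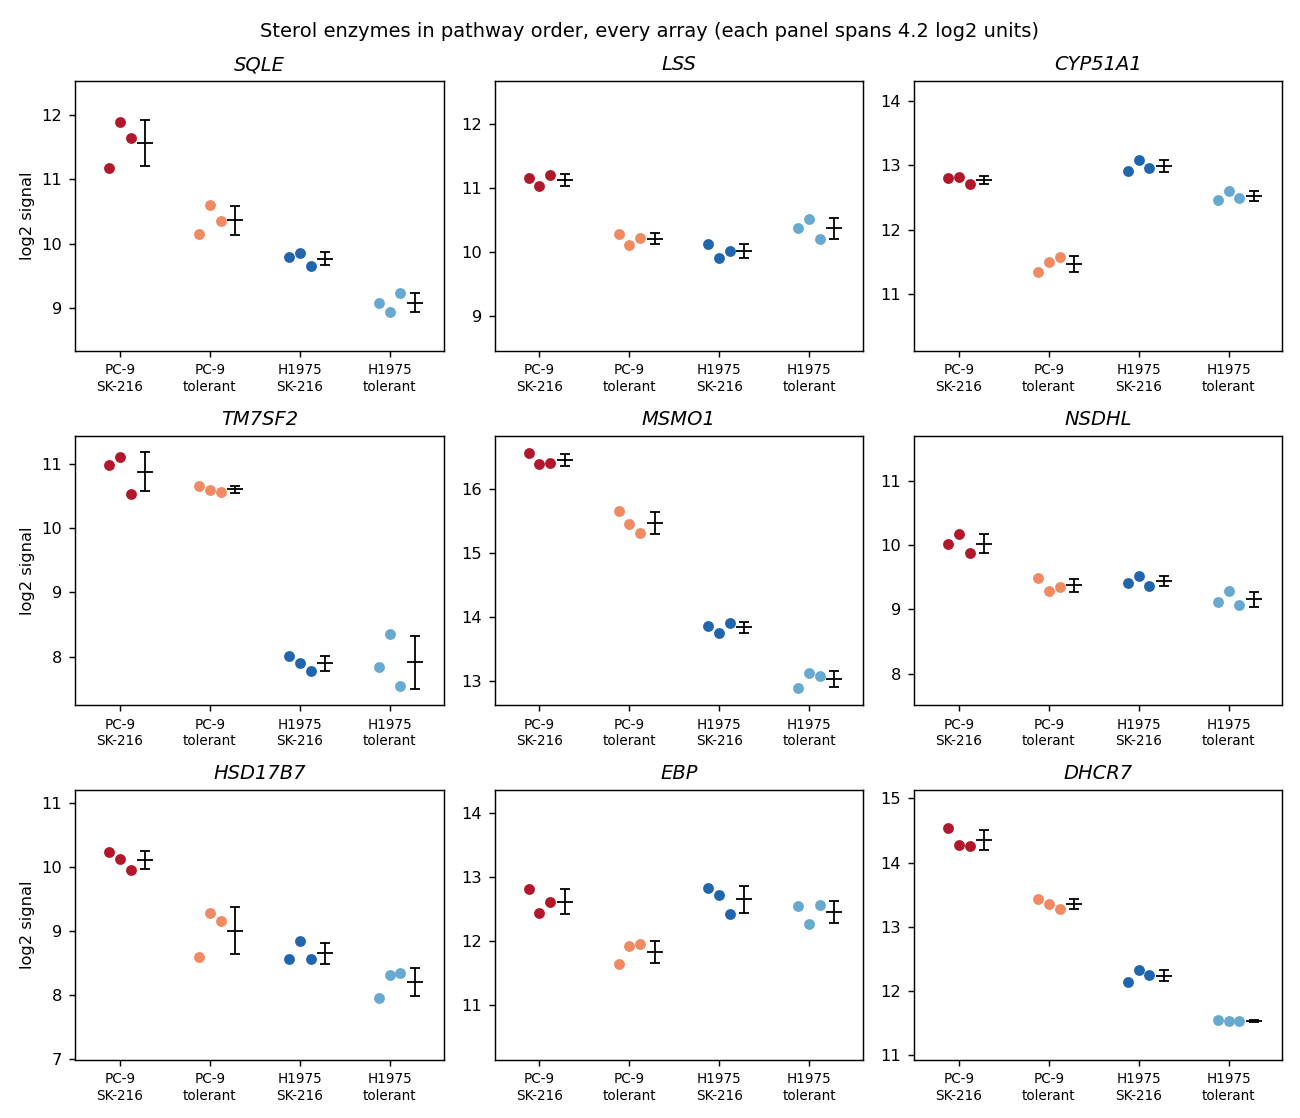
Log2 signal of each of the 9 enzymes on every array, in pathway order; points are arrays, the bar beside them is the mean ± SD of 3, and each panel spans the same number of log2 units. The PC-9 arrays with SK-216 lie above all tolerant PC-9 arrays in every panel but that of TM7SF2.

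SQLE, squalene epoxidase, read 11.18, 11.89 and 11.64 in PC-9 with SK-216, against 10.15, 10.60 and 10.35 in tolerant PC-9 cells. In H1975 it read 9.79, 9.85 and 9.65 with SK-216, against 9.07, 8.94 and 9.23 in tolerant cells. The 4 groups do not overlap, and each SK-216 group lies above the tolerant group of its line. The change was 1.20 ± 0.16 in PC-9 (adjusted p = 0.000184) and 0.68 ± 0.16 in H1975 (adjusted p = 0.0124), or 2.30-fold and 1.61-fold. The call in H1975 ended without SK-216 array 2 or without tolerant array 2 (highest adjusted p = 0.0681), and in a fit without the variance trend (adjusted p = 0.0785).

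LSS, lanosterol synthase, was the member whose SK-216 arrays separated from the tolerant arrays in opposite directions in the 2 lines. Its values in PC-9 were 11.15, 11.02 and 11.20 with SK-216, against 10.28, 10.11 and 10.22 in tolerant cells. In H1975 they were 10.13, 9.91 and 10.01 with SK-216, against 10.38, 10.52 and 10.20 in tolerant cells. SK-216 arrays thus lay wholly above tolerant arrays in PC-9 and wholly below them in H1975. LSS rose in PC-9 by 0.92 ± 0.12 (adjusted p = 0.000238), and its change in H1975 was -0.35 ± 0.12, which did not pass (adjusted p = 0.142; unadjusted 0.00972). Tolerant cells of the lines overlapped in LSS level, and so did tolerant PC-9 cells and H1975 cells with SK-216.

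CYP51A1, lanosterol demethylase, had the largest change of the 9 in PC-9 and the second smallest p of all probe sets there. The PC-9 arrays read 12.81, 12.82 and 12.71 with SK-216, against 11.34, 11.49 and 11.58 in tolerant cells. The H1975 arrays read 12.92, 13.09 and 12.96 with SK-216, against 12.47, 12.61 and 12.50 in tolerant cells. No 2 groups overlap, and H1975 with SK-216 is highest and tolerant PC-9 lowest. The rise was 1.31 ± 0.10 in PC-9 (adjusted p = 2.21e-08), or 2.48-fold with a 95% confidence interval of 2.16 to 2.85, and 0.46 ± 0.10 in H1975 (adjusted p = 0.00513). Without the variance trend the H1975 call ended (adjusted p = 0.071).

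TM7SF2, a sterol reductase, was the only one of the 9 with no call in either line. It read 10.99, 11.11 and 10.53 in PC-9 with SK-216, against 10.66, 10.59 and 10.56 in tolerant PC-9 cells. It read 8.01, 7.90 and 7.78 in H1975 with SK-216, against 7.84, 8.35 and 7.54 in tolerant H1975 cells. Groups overlapped within each line and the lines were far apart. The change was 0.27 ± 0.18 in PC-9 (95% interval -0.10 to 0.65, adjusted p = 0.621) and -0.01 ± 0.18 in H1975 (-0.39 to 0.36, adjusted p = 0.988), so a rise such as that of CYP51A1 in PC-9 lies outside both intervals. LBR, the lamin B receptor, which can carry out the same reduction, was at 0.15 ± 0.13 in PC-9 and 0.32 ± 0.13 in H1975, neither past the test (adjusted p = 0.733 and 0.219).

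Of the 3 enzymes that remove the methyl groups of ring A, MSMO1, the oxidase that acts first, rose in both lines. MSMO1 read 16.56, 16.38 and 16.40 in PC-9 with SK-216, against 15.65, 15.45 and 15.31 in tolerant PC-9 cells, and 13.87, 13.75 and 13.91 in H1975 with SK-216, against 12.90, 13.13 and 13.08 in tolerant H1975 cells. The 4 groups are separate, with both PC-9 groups above both H1975 groups. The rise was 0.98 ± 0.09 in PC-9 (adjusted p = 8.73e-07) and 0.81 ± 0.09 in H1975 (adjusted p = 2.75e-06), the largest of the 9 in H1975.

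NSDHL, the dehydrogenase that releases the oxidised methyl group, read 10.02, 10.17 and 9.88 in PC-9 with SK-216, against 9.49, 9.29 and 9.35 in tolerant PC-9 cells. In H1975 it read 9.41, 9.52 and 9.37 with SK-216, against 9.11, 9.28 and 9.07 in tolerant cells. The SK-216 arrays lay above the tolerant arrays in both lines. NSDHL rose in PC-9 by 0.65 ± 0.14 (adjusted p = 0.0276) and was at 0.28 ± 0.14 in H1975 (adjusted p = 0.354). The PC-9 call was the least stable of the 8: it ended without PC-9 SK-216 array 1 or 2, without tolerant PC-9 array 2 or 3 (highest adjusted p = 0.214), and under 4 of the other settings.

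HSD17B7, the ketoreductase of the same complex, read 10.23, 10.12 and 9.95 in PC-9 with SK-216, against 8.59, 9.28 and 9.15 in tolerant PC-9 cells. In H1975 it read 8.56, 8.84 and 8.56 with SK-216, against 7.95, 8.31 and 8.34 in tolerant cells. Groups were separate within each line, and the widest spread was among the tolerant PC-9 arrays. The rise in PC-9 was 1.09 ± 0.18 (adjusted p = 0.0023), and the change in H1975 was 0.45 ± 0.18, about the size of that of CYP51A1 but not past the test (adjusted p = 0.198). The gene has a near-identical pseudogene copy, whose transcripts the probe set may share, so its values are uncertain, and its PC-9 call ended without the variance trend (adjusted p = 0.0503).

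EBP, the sterol isomerase, read 12.81, 12.43 and 12.60 in PC-9 with SK-216, against 11.64, 11.92 and 11.95 in tolerant PC-9 cells. In H1975 it read 12.83, 12.71 and 12.42 with SK-216, against 12.55, 12.26 and 12.56 in tolerant cells. Only tolerant PC-9 cells stood apart, below the other 3 groups, which overlapped. EBP rose in PC-9 by 0.78 ± 0.13 (adjusted p = 0.0023; 0.121 without the variance trend) and was at 0.20 ± 0.13 in H1975 (adjusted p = 0.536).

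DHCR7, which reduces 7-dehydrocholesterol, read 14.54, 14.28 and 14.26 in PC-9 with SK-216, against 13.43, 13.35 and 13.28 in tolerant PC-9 cells. In H1975 it read 12.15, 12.33 and 12.25 with SK-216, against 11.55, 11.53 and 11.53 in tolerant cells. The groups were separate throughout. DHCR7 rose by 1.01 ± 0.10 in PC-9 (adjusted p = 1.18e-06) and by 0.71 ± 0.10 in H1975 (adjusted p = 3.85e-05). These calls, like those of MSMO1, held under all settings tried, leaving out any 1 array included.

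**Figure D3:**
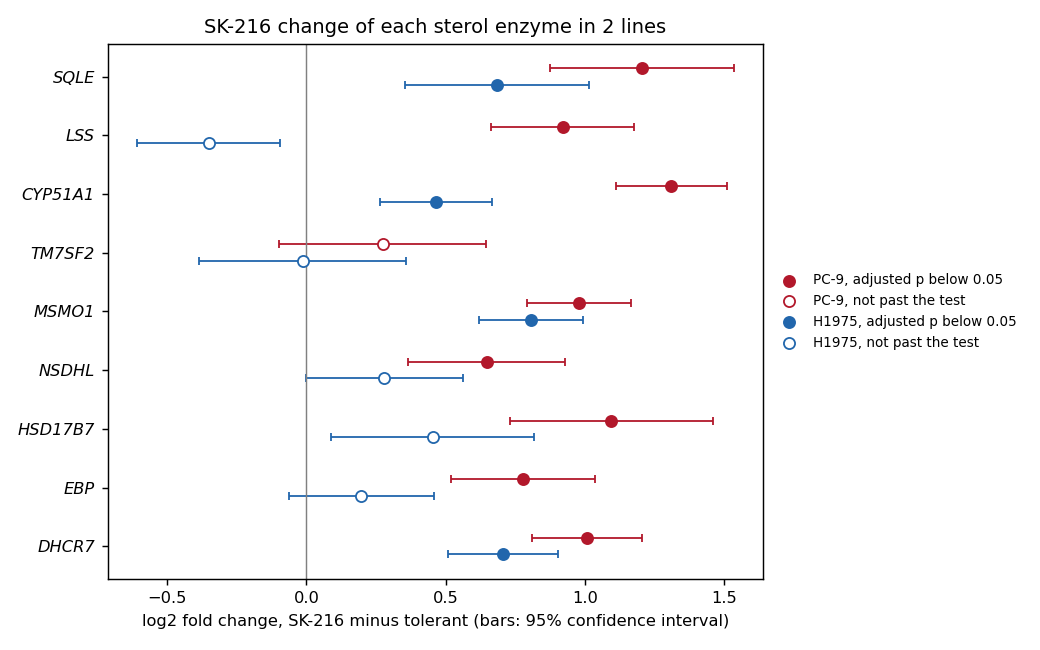
Log2 fold change of each enzyme with SK-216 against tolerant cells, in pathway order from top to bottom, for PC-9 (red) and H1975 (blue). Bars are 95% confidence intervals, filled points passed the test, and only LSS and TM7SF2 in H1975 lie below 0.

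In PC-9, 8 of the 9 enzymes had SK-216 arrays wholly above the tolerant arrays, where 8.21% of all probe sets did, 6.8% lay wholly below and 15% were separate either way. In H1975, 6 lay wholly above, where 8.95% of all probe sets did, and LSS lay wholly below, where 9.56% did and 18.5% were separate either way. Among all 21448 probe sets CYP51A1, MSMO1 and DHCR7 held places 2, 4 and 5 by p in PC-9, SQLE and LSS places 13 and 14, HSD17B7 and EBP 23 and 24, and NSDHL 66. In H1975, MSMO1 held place 45 and DHCR7 place 86, and CYP51A1 and SQLE places 343 and 468.

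The second question was whether the change differed between the lines. All 9 changes were larger in PC-9, where 49.1% of all probe sets had a larger change in PC-9. The median difference was 0.52 on the log2 scale, against -0.01 over all probe sets, for which the 5th and 95th percentiles were -0.58 and 0.58. The difference passed the test for 2 of the 9, LSS at 1.27 ± 0.18 (adjusted p = 0.00016) and CYP51A1 at 0.85 ± 0.14 (adjusted p = 0.00115), where 1.09% of all probe sets passed as higher in PC-9, 0.331% as lower and 1.42% either way. These calls held under each setting tried that gave a value, with adjusted p up to 0.00538 for LSS and up to 0.0495 for CYP51A1. The difference was smallest for MSMO1, at 0.17 ± 0.13, with an interval of -0.09 to 0.43, and it was 0.30 ± 0.13 for DHCR7 and 0.52 ± 0.23 for SQLE. EBP was at 0.58 ± 0.18 and HSD17B7 at 0.64 ± 0.25. The intervals of SQLE, HSD17B7, EBP and DHCR7 left out 0, but none of these passed, with adjusted p from 0.112 for EBP to 0.355 for DHCR7. The calls of EBP, NSDHL and HSD17B7 in PC-9 alone are therefore not shown to be a difference between the lines.

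The third comparison was the level of each enzyme in tolerant cells of the 2 lines, before SK-216. It passed for 7 of the 9, where 44% of all probe sets passed, 21.3% as higher and 22.7% as lower in PC-9. With the dimmest 30% of probe sets left out, 60.8% of the rest passed, a share nearer to that of the members. The arrays were separate for 8 of the 9, 6 of them higher in PC-9, where 50.2% of all probe sets were separate, 25% higher and 25.3% lower. In tolerant PC-9 cells 5 were higher: TM7SF2 by 2.69 ± 0.18, MSMO1 by 2.43 ± 0.09, DHCR7 by 1.82 ± 0.10, SQLE by 1.29 ± 0.16 and HSD17B7 by 0.81 ± 0.18, with adjusted p from 5.73e-17 for MSMO1 to 0.000463 for HSD17B7. On the linear scale the signal of TM7SF2 was 6.47 times and that of DHCR7 3.52 times that of tolerant H1975 cells. CYP51A1 and EBP were lower in tolerant PC-9 cells, with differences of -1.06 ± 0.10 and -0.62 ± 0.13 (adjusted p = 1.58e-09 and 0.000201). LSS at -0.16 ± 0.12 and NSDHL at 0.22 ± 0.14 did not pass (adjusted p = 0.328 and 0.207). Cell line and all that differs with it cannot be told apart here, and fewer cells of a kind and less RNA per cell cannot be told apart in bulk RNA.

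With SK-216 the arrays of the lines were separate for 8 of the 9, 7 of them higher in PC-9, where 24.4% of all probe sets were separate and higher in PC-9 and 26.2% separate and lower. The highest of the 4 group means was that of PC-9 with SK-216 for 7 enzymes (23.2% of all probe sets) and that of H1975 with SK-216 for 2, CYP51A1 and EBP (27.3%). Of the 7, TM7SF2 overlapped with tolerant PC-9 cells. EBP averaged 12.61 ± 0.19 in PC-9 and 12.65 ± 0.21 in H1975 with SK-216 (SD, n = 3 each), ranges that overlap. CYP51A1 averaged 12.78 ± 0.06 in PC-9 and 12.99 ± 0.09 in H1975 with SK-216, a gap of -0.21 where tolerant cells showed -1.06. Tolerant H1975 cells had the lowest mean for 5 enzymes, tolerant PC-9 cells for CYP51A1 and EBP, and H1975 cells with SK-216 for LSS and TM7SF2. In that order, tolerant PC-9 cells overlapped with H1975 cells with SK-216 in LSS, NSDHL and HSD17B7.

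**Figure D4:**
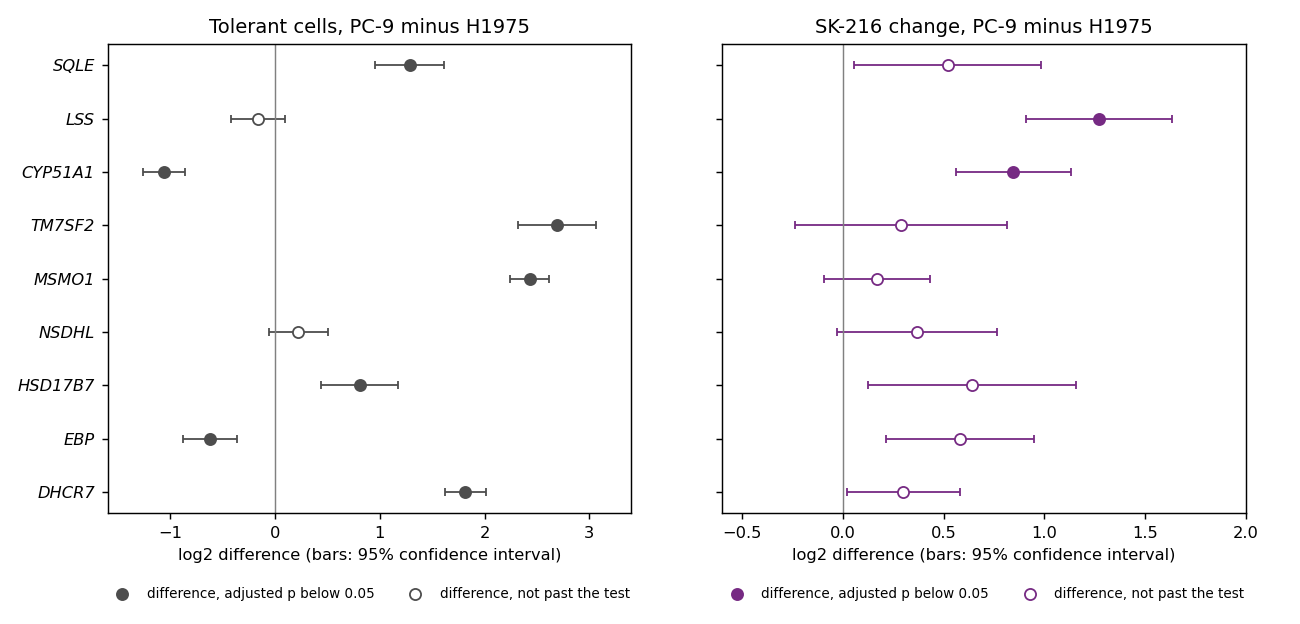
Difference between the lines for each enzyme, PC-9 minus H1975, in tolerant cells (left) and in the SK-216 change (right), on the log2 scale with 95% confidence intervals. Filled points passed the test: 7 of 9 for tolerant cells, with CYP51A1 and EBP below 0, and LSS and CYP51A1 for the SK-216 change.

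To describe how the enzymes varied together, each array was set against the mean of its line and each enzyme was correlated with the mean of the other 8 over the 12 arrays. These points share the SK-216 difference, so r is a description only. It was 0.99 for CYP51A1, 0.95 for NSDHL, 0.93 for DHCR7 and 0.92 for HSD17B7, and between 0.85 and 0.89 for SQLE, MSMO1 and EBP. It was 0.64 for LSS and 0.40 for TM7SF2. Within the 6 arrays of a line, LSS was at 0.96 in PC-9 and -0.80 in H1975, EBP at 0.93 and 0.42, and TM7SF2 at 0.63 and 0.03. The other 6 were at 0.846 or above in both lines. Of all other named probe sets, the 5 most like the mean of the 9 were ACAT2 and HMGCS1, at r = 0.97 each, which act early in sterol synthesis, SCD, a fatty acid desaturase, at 0.96, THAP4 at 0.95 and CCNA2, cyclin A2, at 0.94. THAP4 passed the test in neither line, at 0.44 ± 0.12 in PC-9 and 0.23 ± 0.12 in H1975. CCNA2 rose in PC-9 by 0.42 ± 0.09 (adjusted p = 0.0383) and was at 0.16 ± 0.09 in H1975 without a call.

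The rest of the pathway is given for comparison, from lists chosen by function with earlier results of these data known. Of 8 mevalonate enzymes measured, which lead to the precursors of squalene, 5 rose in PC-9 (median 1.24) and 2 in H1975 (median 0.20). Over all probe sets, 0.373% rose in PC-9, and 1.44% rose and 2.35% fell in H1975. ACAT2 rose by 1.46 ± 0.15 in PC-9 and 0.54 ± 0.15 in H1975, and HMGCS1 by 1.31 ± 0.10 and 0.55 ± 0.10. FDPS, farnesyl diphosphate synthase, rose in PC-9 by 1.17 ± 0.12. The difference between the lines passed for it and 4 others of the 8, where 1.09% of all probe sets passed as higher in PC-9. Of 4 other sterol enzymes measured, ERG28, a scaffold of the demethylating complex in yeast, rose in PC-9 by 0.58 ± 0.09, SC5D, a desaturase, was at 0.52 ± 0.19 without a call (adjusted p = 0.293), and FAXDC2 fell in H1975, at -1.07 ± 0.18 (adjusted p = 0.000447).

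Genes that sense and move sterol were taken next. For these lists too, the shares over all probe sets were 0.373% higher in PC-9, and 1.44% higher and 2.35% lower in H1975. Of 9 measured genes of SREBP control and sterol uptake, 2 rose in PC-9 and 1 in H1975. INSIG1, which holds the SREBP complex in the endoplasmic reticulum, rose in both lines, by 0.88 ± 0.19 in PC-9 (adjusted p = 0.0295) and 0.69 ± 0.19 in H1975 (adjusted p = 0.0366). TMEM97, an endoplasmic reticulum protein that binds sterols, rose in PC-9 by 0.86 ± 0.10. SREBF2, the gene of SREBP2, was at 0.49 ± 0.15 in PC-9 and 0.35 ± 0.15 in H1975, neither past the test (adjusted p = 0.19 and 0.257), and SREBF1 was at 0.00 ± 0.19 and -0.03 ± 0.19. Of 9 genes of efflux, storage and oxysterols, ABCA1, the cholesterol exporter, fell in H1975, by 0.997 ± 0.23 on the log2 scale (adjusted p = 0.0121), and none passed in PC-9. Of 8 fatty acid genes, 3 rose in PC-9, SCD, FADS2 and ELOVL5, and SCD alone in H1975; none of 4 genes of sterol enzyme degradation passed in either line.

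**Figure D5:**
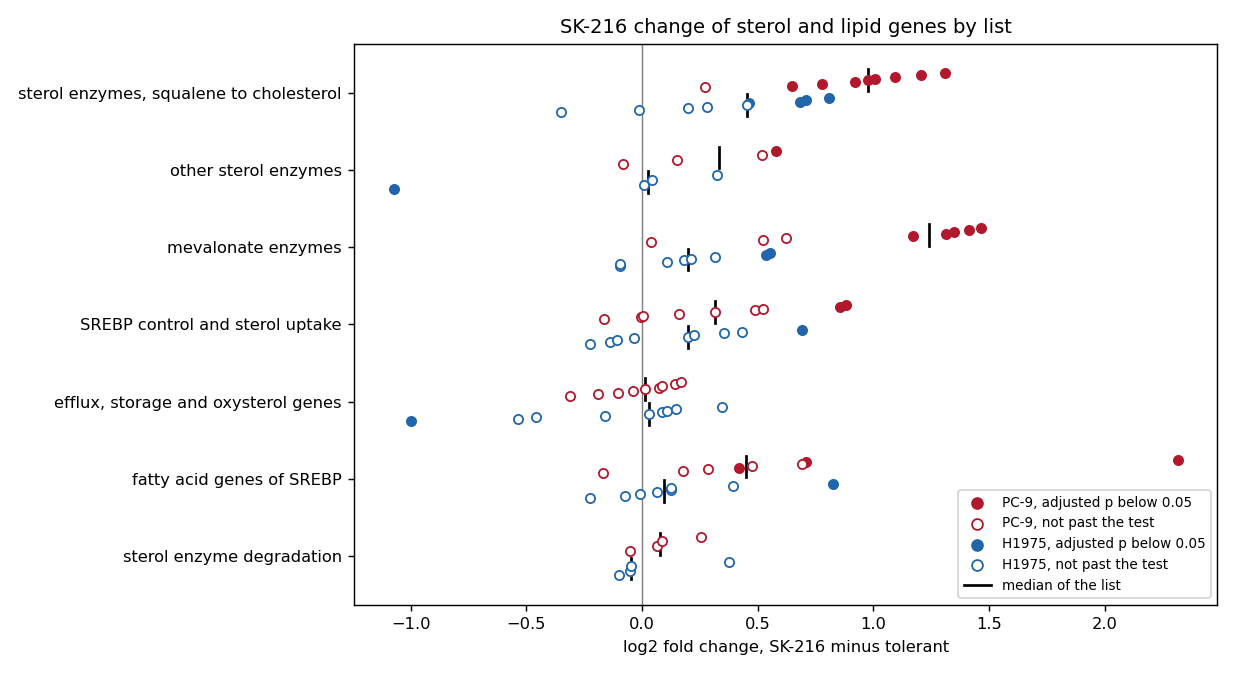
Log2 fold change with SK-216 of every measured gene in 7 lists, PC-9 (red) above H1975 (blue) within each list; filled points passed the test and the black line is the list's median. The median of the 9 sterol enzymes is 0.98 in PC-9 and 0.45 in H1975.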

How the data were processed

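RNA of 12 samples was hybridised to Affymetrix whole-transcript arrays, 250 ng each, per the labels' protocols. The log2 signals are used as deposited by the authors, with no further normalization; per the submitters' processing notes the tool was Transcriptome Analysis Console. Its version, the summarisation, the normalization and the genome build: not given in the sources used here. Arrays have no read depth, and the precision is limited by their number, 3 in a group. Gene names came from the platform annotation, updated by Entrez identifier in RefSeq (GRCh38.p14); 17709 of 21448 probe sets had 1 symbol, none had several and 3739 were unnamed.

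The 4 group means were estimated from the 12 arrays together by limma 3.58.1, R 4.3.3 (eBayes with a variance trend, two-sided, Benjamini-Hochberg over all probe sets). The fit compared SK-216 with tolerant cells within a line, these changes with each other, and the tolerant cells of both lines. Simulated data, with the same changes planted in both lines, tested the fit for the comparisons within a line only. Nothing states that replicates are separate cultures; p-values then reflect array-to-array spread alone, possibly technical. Members, gene lists and motifs were chosen with earlier results of these data known. All members are named; of other lists, up to 4 called genes per contrast and a few regulators or enzymes of the same step, these chosen after their values were seen. Alternatives were other variance models, normalizations and filters, each line fitted alone, replicate blocks, array weights and leaving out each array.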

Additional observations from a re-analysis of the deposited data

Results flagged for a closer look

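The SK-216 change of 2 of the 9 enzymes differed between the lines by the test of the difference itself. LSS changed by 1.27 ± 0.18 more in PC-9 than in H1975 on the log2 scale (limma interaction, adjusted p = 0.00016). Its SK-216 arrays lay above all tolerant arrays in PC-9, as for 8.21% of all probe sets. In H1975 they lay below all of them, as for 9.56%. The H1975 change of LSS itself, at -0.35 ± 0.12, did not pass (limma, adjusted p = 0.142), so a fall there is not shown. CYP51A1 changed by 0.85 ± 0.14 more in PC-9 (adjusted p = 0.00115), with a rise in both lines. Groups of 3 arrays are too small to test single arrays as outliers.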

How the results depend on the processing

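Of 774 values of single enzymes under other settings, 757 kept their direction and their side of the threshold, 14 lost a call, none gained one and 3 changed sign. Those 3 are all of TM7SF2 in H1975, at 0.017 with quantile normalization, 0.045 without SK-216 array 3 and 0.21 without tolerant array 2, in a range of -0.20 to 0.21 over the fits that leave out 1 array; none is a call. Without the variance trend 5 enzymes were called in PC-9 in place of 8, and 2 in H1975 in place of 4, all of them among the original calls. Calls over all probe sets were then 18 in place of 95 in PC-9, 448 in place of 814 in H1975 and 99 in place of 304 for the difference. The cause was not tested. Leaving out 1 array gave 7 to 8 enzymes called in PC-9, 3 to 4 in H1975, 2 for the difference and 7 for tolerant cells. Over all probe sets, PC-9 calls were 30 without SK-216 array 2, 60 and 59 without arrays 1 and 3, and 46 without tolerant array 3. With a replicate block fitted inside each line, 7 enzymes were called in PC-9, NSDHL being lost, and 4 in H1975 (58 and 673 probe sets in all); with 1 block over both lines, 8 and 4. Same-numbered arrays of a line had deviations correlated between -0.09 and 0.03, so the numbers give no sign of pairing. Lines fitted alone gave no value for the comparisons between lines.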
